A study of Mus musculus with 7 samples.

Results

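Rpl22 encodes a protein of the large ribosomal subunit and lies inside a deleted segment of mouse chromosome 4, and Rpl22l1 is its paralogue. Both were chosen by name and found by Ensembl identifier (Rpl22, ENSMUSG00000028936; Rpl22l1, ENSMUSG00000039221). They are 2 of the 15531 genes that the authors tested. The question was whether Rpl22l1 rises when 1 copy of Rpl22 is lost. Group means were used for Rpl22, but no level of Rpl22l1 was analysed here, so that question was not answered.

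PolyA+ RNA was sequenced from 7 primary mouse embryonic fibroblast (MEF) lines, which are fibroblast cultures grown from embryo bodies after the heads had been removed. Per the labels, the embryos came from Df/Dp male chimeras crossed with C57BL/6J, and they were taken at embryonic day 13.5, and cells were harvested as confluent cultures at passage 4. The 4 Df/+Bl6 lines (36, 56, 71 and 98) carried the deletion opposite an intact C57BL/6J chromosome. The 3 +129/+Bl6 lines (88, 90 and 95) carried an intact chromosome of 129S5SvEvBrd origin opposite the C57BL/6J one and served as controls. The labels give the same cross for all 7 lines, but the study's methods name +129/+Bl6 crosses for the controls, so a difference in cross cannot be told apart from the genotype.

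Ribosomal proteins are made in matched amounts and assembled with ribosomal RNA in the nucleolus. The Rpl22 protein binds RNA and is known for its role in T cell development, while most translation goes on without it. The Rpl22l1 protein can take its place in the ribosome, and the Rpl22 protein is known to bind the Rpl22l1 message and lower its level.

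In the mouse assembly NCBIM37, Rpl22 lies at chr4:151699851-151708180 and Rpl22l1 at chr3:28704358-28706274, both on the plus strand. Each of the transcripts compared has 4 exons. The coding sequence of Rpl22 has 387 bases and that of Rpl22l1 has 369. Of the 369 aligned coding bases, 259 were identical, or 70.2%. The likeness matters for counting because a read that matches both genes could be credited to neither. The most alike stretch of 90 aligned coding bases is shown here in the sense direction, with identical bases in capitals.
Rpl22: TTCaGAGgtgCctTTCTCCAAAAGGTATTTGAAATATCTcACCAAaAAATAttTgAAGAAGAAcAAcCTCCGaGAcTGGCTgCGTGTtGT
Rpl22l1: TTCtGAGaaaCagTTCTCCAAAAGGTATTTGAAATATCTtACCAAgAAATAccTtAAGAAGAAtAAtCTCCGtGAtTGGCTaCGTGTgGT

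The stretch covers coding bases 219 to 308 of Rpl22 and runs from exon 3 into exon 4 (chr4:151704214-151706454, with the intron between them). In Rpl22l1 it covers coding bases 201 to 290, also from exon 3 into exon 4 (chr3:28705757-28706174). The genes share 73 of its 90 bases. Of the 17 differences, 13 fall on the last base of a codon. The longest run that both transcripts share without a difference lies in this stretch and has 26 bases, TTCTCCAAAAGGTATTTGAAATATCT.

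A whole read of 100 bases therefore told the paralogues apart when it was aligned without mismatches. Of the 1952 runs of 100 bases in the longest Rpl22 transcript, 0 occurred in a protein-coding transcript of another gene or in an annotated pseudogene exon. Of the 390 such runs in Rpl22l1, 184 (47.2%) also occurred in the pseudogene Gm15421, and 0 occurred in protein-coding transcripts of other genes. Gm15421 was not among the tested genes. The authors discarded reads that aligned equally well to several places and required the mates of a pair to lie on the same gene. Reads that match both copies would thus be dropped if Gm15421 was in their reference, and counted for Rpl22l1 if it was not. Which of these held was not tested, so a count of Rpl22l1 is uncertain.

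Rpl22 RNA was lower in the deletion lines. With both alleles combined, the authors' mean normalized count was 22454 in +129/+Bl6 and 11053 in Df/+Bl6. The Df/+Bl6 mean was 49.2% of the control mean, a log2 ratio of -1.02. A log2 ratio of -1 is the ratio of 1 copy to 2. Both means rest on the authors' scaling of the lines, and another scaling of all tested genes was not run. Relative to the median of the listed genes outside the interval the log2 ratio was -1.64, but that median is not a scale of no change. Rpl22 was among the genes that the authors listed as different at a false discovery rate (FDR) of 0.05. The list held 1346 of the 15531 tested genes, or 8.67%. Of these, 796 (5.13% of tested genes) had the higher mean in Df/+Bl6 and 550 (3.54%) the lower. The means were used without a spread between lines, and no new test was run.

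**Figure D1:**
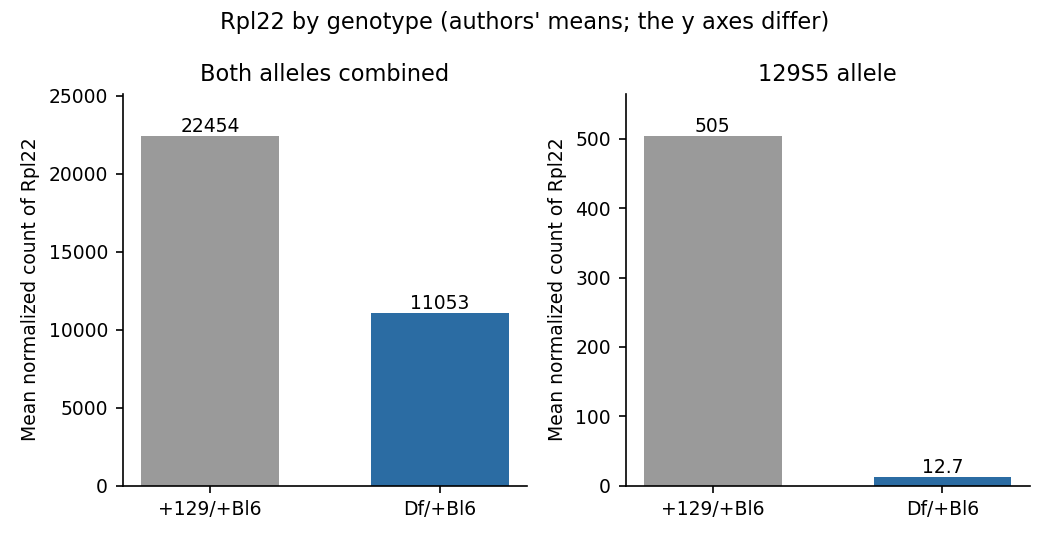
Authors' mean normalized count of Rpl22 (y axis) in the control genotype +129/+Bl6 and the deletion genotype Df/+Bl6, with both alleles combined (left) and for the 129S5 allele (right). Bars are group means without error bars, the y axes differ, and the means go from 22454 to 11053 on the left and from 505 to 12.7 on the right.

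Among the listed genes of the region around the deletion, Rpl22 had a middle ratio. The region was taken from Rere to Ski, which flank the deletion, and it can hold genes at its ends that are not deleted. It held 42 tested genes, and 27 of them were listed in the combined comparison, all with the lower mean in Df/+Bl6. The other 26 had log2 ratios from -2.79 (Arhgef16) to -0.66 (Phf13), with a median of -1.13. Of these 26, 13 had a lower ratio than Rpl22 and 13 a higher one. The interval genes that were not listed have no combined mean here, so this order holds among listed genes only. The 3 interval genes nearest to Rpl22 in ratio were Errfi1, Vamp3 and Dnajc11. Errfi1, an inhibitor of the EGF receptor, went from an authors' mean of 17739 to 8843, and its log2 ratio was 0.02 away from that of Rpl22. Vamp3, a membrane fusion protein of endosomes, had a log2 ratio of -0.99, and Dnajc11, a mitochondrial cochaperone, one of -0.97. These ratios were computed over the 2 group means only, so they describe likeness in size and not across lines.

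Some listed genes outside the interval had similar ratios. The 3 nearest to Rpl22 were Mt1, Gm5884 and Svep1, with log2 ratios of -1.02, -1.02 and -1.01. Mt1 encodes a metallothionein that binds zinc and copper, and its authors' mean went from 17775 to 8761. Svep1, a large extracellular matrix protein gene on chromosome 4 at 58055314 to 58219731, was also listed for both alleles separately. Of the 550 genes listed as lower in Df/+Bl6, 166 had a log2 ratio below that of Rpl22.

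The 129S5 copy of Rpl22, the one removed by the deletion, gave almost no reads in Df/+Bl6. The authors' mean for this allele was 505 in +129/+Bl6 and 12.7 in Df/+Bl6, which left 2.52% of the control mean and a log2 ratio of -5.31. That ratio became -4.50 with a pseudocount of 10, and -6.04 relative to the median of listed genes outside the interval. The 129S5 comparison listed 257 genes, 134 higher and 123 lower in Df/+Bl6. In the interval 22 genes were listed for the 129S5 allele, all lower. The remaining share for the other 21 had a median of 0.485%, and Rpl22 had the second highest, after Zbtb48 with 3.96%. Where the remaining reads came from was not tested.

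The study's methods describe the allelic counts only as reads mapping to each strain's transcriptome. Whether every such read covered a base that differs between the strains was not tested. The 129S5 mean of Rpl22 in the control lines was 2.25% of its combined mean. For the other 18 interval genes listed in both tables this share ran from 0.847% to 27.6%, with a median of 7.20%, and 2 genes lay below Rpl22. The tables were normalized separately, so these shares set levels across separate scales and describe only how much signal the allelic value rests on.

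For the C57BL/6J allele, the copy that stays in the deletion lines, Rpl22 was not listed. That comparison listed 326 genes, 181 higher and 145 lower in Df/+Bl6. It included 12 interval genes, all lower in Df/+Bl6, with log2 ratios from -1.70 to -0.61. A gene without an entry has no mean in the table, so neither the level nor the direction of the C57BL/6J copy of Rpl22 was given. Rpl22 shared this with other interval genes: of the 22 listed for the 129S5 allele, 10 were not listed for the C57BL/6J allele, Rpl22 and Errfi1 among them.

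**Figure D2:**
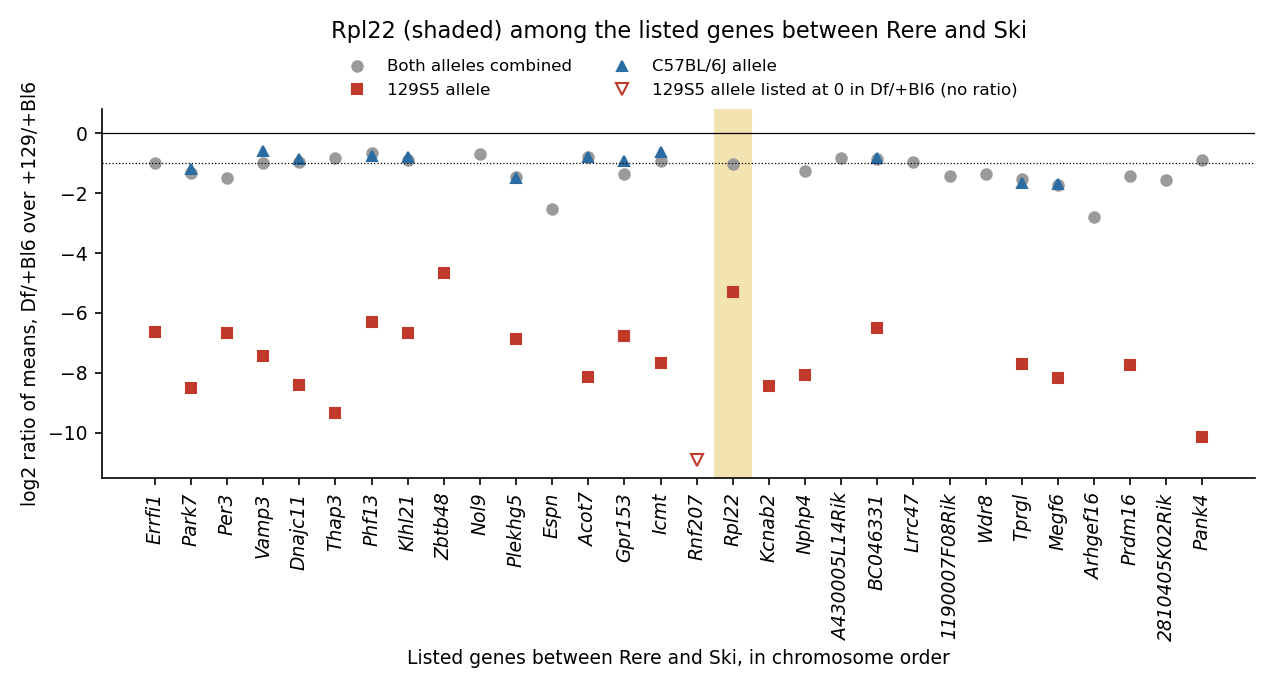
Log2 ratio of the authors' means, Df/+Bl6 over +129/+Bl6 (y axis), for listed genes between Rere and Ski in chromosome order (x axis). Rnf207, listed for the 129S5 allele only, has no log2 ratio because its Df/+Bl6 mean for that allele was 0. An open triangle pointing down at the bottom marks it, and its height is not a value. Circles are both alleles combined, squares the 129S5 allele and filled triangles the C57BL/6J allele, and the dotted line marks -1. The shaded Rpl22 has points at -1.02 and -5.31 and none for the C57BL/6J allele.

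The genes next to Rpl22 gave mixed entries. Rnf207, a RING finger protein gene 6748 bases before it, was listed for the 129S5 allele only, at 20.1 in +129/+Bl6 and at 0 in Df/+Bl6. Chd5, a chromatin remodeller gene 4579 bases after it, was tested and appeared in none of the 3 tables. Around Rpl22l1 on chromosome 3, the nearest protein-coding genes, Gm17485 and Gm1527, were not among the tested genes.

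Rpl22l1 was among the tested genes but was listed in none of the 3 comparisons, neither with both alleles combined nor for either allele alone. It therefore did not pass the authors' threshold in the combined comparison. This does not show that its level was unchanged, and gives no direction for it. With 4 lines against 3, how small a change could have been listed was not tested.

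Besides Rpl22, 1 cytosolic ribosomal protein gene was listed. Of the 45 tested large subunit genes, 2 (4.44%) were listed in the combined comparison, and both were lower in Df/+Bl6. One was Rpl22 and the other was Rpl36, on chromosome 17 outside the deletion. The authors' mean for Rpl36 went from 34071 to 21910, or 64.3% of the control mean and a log2 ratio of -0.64. Of the 30 tested small subunit genes, 0 were listed. Together 2 of 75 tested genes (2.67%) were listed, against 8.67% of all tested genes. By allele, Rpl22 was the single large subunit gene listed for the 129S5 allele, where 257 genes were listed in all. No gene of either subunit was listed for the C57BL/6J allele, where 326 genes were listed in all. How many genes were tested by allele is not known here, so these counts have no share to set beside them.

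The other paralogues had no entry either. Of 8 paralogues of ribosomal protein genes, Rpl22l1 itself included, 5 were tested, Rpl22l1 among them, and 0 were listed in any of the 3 comparisons. With 8.67% of all tested genes listed in the combined comparison, a count of 0 among 5 says nothing about the paralogues. Not listed is no statement of equal levels for these genes either. Of 75 tested genes for mitochondrial ribosomal proteins, Mrpl47 alone was listed, where 8.67% of all tested genes were. Its authors' mean was 982 in +129/+Bl6 and 1548 in Df/+Bl6, and a single gene gives no direction for the set.

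Of 32 tested factors that assemble ribosomes, 7 (21.9%) were listed in the combined comparison, against 8.67% of all tested genes, and 25 were not listed. Of the 7, 6 were higher and 1 was lower in Df/+Bl6, and of all 1346 listed genes 796 were higher. Nop58 and Nop56, core proteins of the particles that methylate ribosomal RNA, had log2 ratios of 1.08 and 0.70. The authors' mean of Nop58 went from 7190 to 15161. Dkc1, the enzyme that makes pseudouridine in ribosomal RNA, went from 3968 to 8325, a log2 ratio of 1.07. Ncl, the abundant nucleolar protein nucleolin, went from 72849 to 123995, a log2 ratio of 0.77. Lyar and Gnl3, both nucleolar proteins, had log2 ratios of 0.98 and 0.63.

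The single factor listed as lower was Nol9, a kinase that acts in the processing of large subunit RNA. Nol9 lies in the interval between Rere and Ski like Rpl22, and its authors' mean went from 3130 to 1912, a log2 ratio of -0.71. None of the assembly factors was listed for either allele separately, where 257 (129S5) and 326 (C57BL/6J) genes were listed in all. How many genes were tested by allele is not known here, so this absence says nothing about the list. The share of this list was set beside that of all tested genes as a description, and the difference was not tested.

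**Figure D3:**
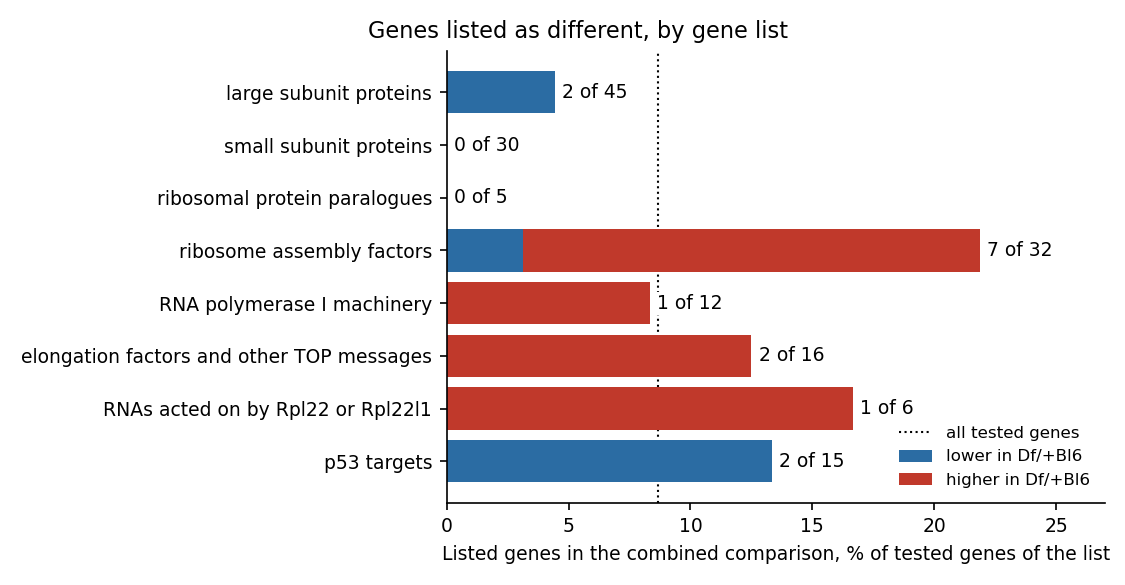
Share of the tested genes of each list, cell type markers left out, that the authors listed in the combined comparison (x axis, percent). Bars are split into genes lower and higher in Df/+Bl6, with listed and tested numbers beside each bar. The dotted line is the 8.67% of all tested genes. Ribosome assembly factors reach 21.9%, where large subunit proteins have 2 of 45 and small subunit proteins 0 of 30.

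The RNA polymerase I list had a share near the 8.67% of all tested genes. Of 12 tested genes for RNA polymerase I, which transcribes ribosomal RNA, and its factors, 1 (8.33%) was listed. It was Taf1d, a subunit of the promoter selectivity factor, with a log2 ratio of 0.58. Of 16 elongation factors and other genes whose messages are translated under the same control as those of ribosomal proteins, 2 (12.5%) were listed, both higher in Df/+Bl6, where 5.13% of all tested genes were listed as higher. Hnrnpa1, an RNA-binding protein of splicing, had a log2 ratio of 0.63, and Nap1l1, a histone chaperone, one of 0.75.

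Among 6 genes whose RNAs Rpl22 or Rpl22l1 is known to act on, Rpl22l1 itself included, Mdm4 was the 1 listed (16.7%, against 8.67% of all tested genes), and a count of 1 says nothing about the list. Mdm4 encodes an inhibitor of p53 whose splicing is known to respond to these proteins. Its authors' mean went from 1946 to 4158, a log2 ratio of 1.10. The counts do not separate its splice forms.

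Of 15 tested target genes of p53, 2 (13.3%) were listed, against 8.67% of all tested genes, so the count does not set the list apart. Both were lower in Df/+Bl6, as were 3.54% of all tested genes. Cdkn1a, the cell cycle inhibitor p21, went from an authors' mean of 16690 to 10462, a log2 ratio of -0.67. Perp, a membrane protein of desmosomes and cell death, went from 6339 to 2146, a log2 ratio of -1.56. Perp was also listed for each allele, with a log2 ratio of -1.43 for 129S5 and of -1.27 for C57BL/6J.

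Markers of cell types were read in the same comparison. Of 14 tested fibroblast markers, 1 (7.14%) was listed, the matrix protein gene Fn1, with a log2 ratio of -0.69. Its authors' mean of 3418220 in +129/+Bl6 and 2121647 in Df/+Bl6 shows that both genotypes held this fibroblast RNA. Of 3 tested markers of Schwann or neural crest cells, 2 (66.7%) were listed, both lower in Df/+Bl6, and 1 was not listed. Of all tested genes, 8.67% were listed and 3.54% were listed as lower. Sox10, a transcription factor of the neural crest, went from an authors' mean of 326 to 113, and Foxd3, an early neural crest factor, from 118 to 40.3. Their summed means were 444 in +129/+Bl6 and 153 in Df/+Bl6. In these bulk samples fewer cells of a type and less RNA per cell cannot be told apart. The part of these cells in the values of the ribosome genes was not tested.

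Of 5 tested macrophage markers, 5 endothelial, 3 epithelial and 5 skeletal muscle markers, 0 were listed, against 8.67% of all tested genes. None of these has a level here, and counts of 0 in lists this small say nothing about these cell types.

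**Figure D4:**
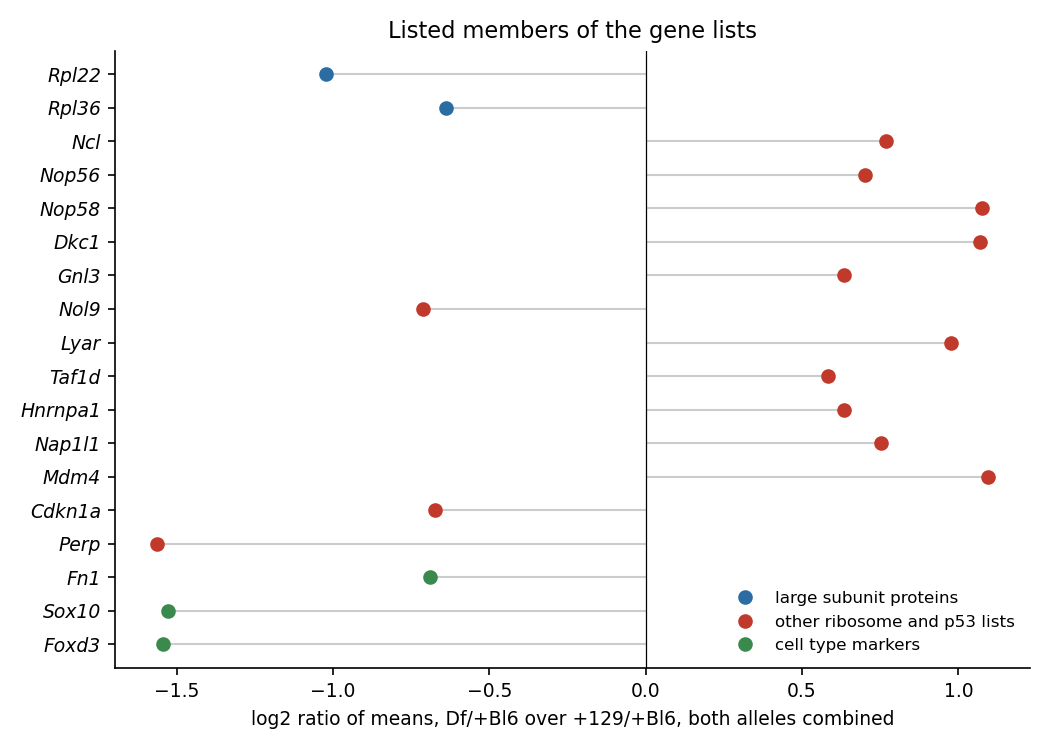
Log2 ratio of the authors' means, Df/+Bl6 over +129/+Bl6 with both alleles combined (x axis), for every member of the gene lists that was listed (y axis), in the order of the lists. Points left of 0 are lower in Df/+Bl6: Rpl22 lies at -1.02 and Rpl36 at -0.64, while 6 of the 7 ribosome assembly factors lie above 0.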

How the data were processed

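Per the submitters' processing notes, reads were aligned with GSNAP (genome build GRCm38) and tested with DESeq. The authors aligned without mismatches to the transcriptome of each strain, on the longest transcript of each gene. The signal values that the authors deposited are normalized counts averaged over the lines of a genotype, in 3 tables normalized separately (both alleles, 129S5, C57BL/6J), which hold only genes at an FDR of at most 0.05. The tables also hold fold changes, log2 fold changes, p-values and adjusted p-values of the authors' own comparison. These were not used, apart from a check of the FDR limit. A further file has 9 columns of values without names, which were not used for any gene, Rpl22l1 included; its gene identifiers gave the tested genes. The depth per line is therefore unknown, and the planned tests between lines were replaced by log2 ratios of the authors' means (Df/+Bl6 over +129/+Bl6), with no pseudocount and no test.

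The overall mean in each table equals the means of both genotypes weighted by 4 and 3 lines, which gives the genotype of each column. Symbols and positions come from GENCODE on NCBIM37, and 14963 of the 15531 tested genes had a symbol. The interval was taken as the genes between Rere and Ski. Coding sequences were aligned with Biopython 1.88 and tables were read with pandas 2.3.3. The calculation of ratios and counts was checked on simulated means without noise, which checks the code and not the results.

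Named genes are both paralogues, every listed member of each gene list, the 3 genes inside and the 3 outside the interval with the ratio nearest to Rpl22, and the nearest protein-coding neighbours. Any other gene named was chosen after its values were seen. The members and lists were chosen with earlier results of these data known, and 1 gene taken out of the marker lists afterwards, for a reason other than its values, is not reported here. The marker counts cover the remaining genes and could differ with it. The alternatives were pseudocounts of 1 and 10, a ratio relative to listed genes outside the interval, a minimum mean of 1000, a minimum difference of 1.5 times, and a wider set of ribosomal protein genes.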

Additional observations from a re-analysis of the deposited data

How the results depend on the processing

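With both alleles combined, the log2 ratio of Rpl22 stayed at -1.02 with a pseudocount of 1 or 10. Relative to the median of the listed genes outside the interval it was -1.64, with a median of 0.62. That median is over genes listed as different, most of them higher in Df/+Bl6, so it is not a scale of no change and the shift does not test the scaling of the lines. For the 129S5 allele the log2 ratio of -5.31 became -5.20 with a pseudocount of 1 and -4.50 with a pseudocount of 10, since its Df/+Bl6 mean was 12.7. Relative to the listed genes outside the interval it was -6.04. A pseudocount cannot turn the direction, by its construction. The number of listed ribosomal protein genes in the combined comparison was 2 with a minimum mean of 1000 and with a minimum difference of 1.5 times. Of all 1346 listed genes, 1042 passed that minimum mean and 1165 that minimum difference. With paralogues and mitochondrial ribosomal proteins added, 3 of 155 tested ribosomal protein genes (1.94%) were listed, against 8.67% of all tested genes. Leaving out each line in turn, and other pseudocounts for Rpl22l1, were not run, because no value per line was used; for the C57BL/6J allele of Rpl22 no alternative gave a value. No paired analysis was possible because the values used are group means. The means carry no error here, so a difference between 2 ratios cannot be set against the spread between lines. The depth per line is unknown, and the low 129S5 mean of Rpl22 in Df/+Bl6 limits the precision of its ratio.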
